A study of Homo sapiens with 36 samples.

Results

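SERPINA3 and LCN2 are a pair of genes whose RNA is described here transcript by transcript. Their members are the lines of the deposited count table that carry the symbol SERPINA3 or LCN2, each transcript taken once, which gave 8 SERPINA3 and 7 LCN2 transcripts, 15 of the 159837 transcripts in the table. The genes were chosen on measured values of these libraries, namely their rise in osteoblastic prostate cancer (BPCa) cells grown with MG63 cells and its absence or smaller size in osteolytic prostate cancer (LPCa) cells. Levels and shares in co-culture with MG63 against mono-culture, and in BPCa against LPCa cells, are therefore given as descriptions with no test.

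RNA of 4 human prostate cancer lines was sequenced in 36 libraries, with C4-2 and C4-2B as BPCa lines and DU145 and 22Rv1 as LPCa lines. Each line was grown for 5 days as a mono-culture (3 libraries), beside the osteoblast-like osteosarcoma line MG63 (2 libraries), alone with RANKL at 50 ng/mL (2 libraries), and with RANKL beside RAW264.7, a mouse macrophage line that turns into osteoclasts under RANKL (2 libraries; the labels spell its name RAW246.7). The co-cultures shared medium across a filter, so the partner cells stood in a separate chamber, and each line is an established culture that stands for 1 tumour only. Nothing in the labels says that libraries of 1 group came from separate cultures, so a p-value here measures the spread between libraries, which may be technical.

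SERPINA3 encodes alpha-1-antichymotrypsin, a secreted serine protease inhibitor of the serpin family that traps chymotrypsin-like proteases such as cathepsin G and mast cell chymase. LCN2 encodes lipocalin 2, a small secreted protein that binds iron-carrying bacterial siderophores. Both are acute-phase genes: inflammatory cytokines such as interleukin 1, interleukin 6 and tumour necrosis factor switch them on in liver and epithelia through the factors NF-κB, C/EBP and STAT3.

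The libraries differed in depth with the culture. Mono-cultures held between 23932472 and 36719047 estimated counts (median 31454200) and all other libraries between 9593426 and 15418211, so 3 counts, taken as the floor of detection, came to at most 0.125 CPM (counts per 1000000 counts of the library) in mono-cultures and 0.313 CPM elsewhere. Intervals and floors cover counting error only. Libraries of 1 group correlated at Pearson's r of 0.991 to 0.997 over log2(CPM + 1), except the 2 DU145 libraries with MG63 at r = 0.960, of which replicate 2 correlated less with DU145 mono-cultures (mean r = 0.954) than replicate 1 did (0.987). The 12 mesenchymal markers listed for MG63 summed to 9.33 and 13.9 CPM in the C4-2 co-cultures and 9.53 to 9.84 CPM in C4-2 mono-culture, and to 10.2 CPM in both C4-2B co-cultures against 9.12 to 9.82 CPM. In 22Rv1 they summed to 53 and 55.5 CPM with MG63 against 36.7 to 39.9 CPM in mono-culture, which did not overlap, and in DU145 to 5.48 and 8.36 against 5.76 to 8.31 CPM. The 7 macrophage and osteoclast markers summed to 7.95 to 8.95 CPM in BPCa libraries with RAW264.7 and 8.9 to 11.1 CPM in BPCa mono-cultures. The counts are of human transcripts and RAW264.7 is a mouse line, so these sums cannot show how much RAW264.7 RNA was present. Prostate and epithelial markers were all detected in every group, with prostate markers lowest in DU145 (56.1 to 91.6 CPM in sum). In both BPCa lines the 5 prostate markers summed to less in every other culture than in mono-culture. In C4-2 they came to 5491 to 5668 CPM in mono-culture, 4353 and 4405 with MG63, 4790 and 4902 with RANKL and 4584 and 4616 with RAW264.7. In C4-2B they came to 6389 to 6638, 4775 and 4970, 4016 and 4104, and 3754 and 3937 CPM in the same order, and the part of these marker shifts in the results below was not tested.

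On the GENCODE 29 annotation of GRCh38, SERPINA3 lay on the plus strand of chromosome 14 between 94612377 and 94624055. SERPINA3-201 (ENST00000393078, 1589 bases) and SERPINA3-202 (ENST00000393080, 1581 bases) both have 5 exons and the same reading frame of 423 codons, from 94614442 in exon 2 to 94623811 in exon 5. They differ at their very ends and at the donor site of exon 1, which lies 4 bases further downstream in SERPINA3-201, in the untranslated leader. The stretch from exon 1 into exon 2, which tells them apart, reads as follows, with the 4 extra bases in capitals and the start codon atg just before the last base.
SERPINA3-201: tccagctccctgagGCAGagttgagaatgg
SERPINA3-202: tccagctccctgagagttgagaatgg
The exon 1 part spans chr14:94612430-94612447 in SERPINA3-201 and chr14:94612430-94612443 in SERPINA3-202, and the 12 bases of exon 2 span chr14:94614434-94614445 in both.

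Of the other 6 SERPINA3 transcripts, SERPINA3-203 has the same 423 codons behind a longer exon 2, SERPINA3-204 starts at 94617642 in the intron before exon 3, runs on into that exon and keeps 205 codons, and SERPINA3-206 ends at 94619468 with exon 3 and keeps 305 codons. SERPINA3-208 skips exon 3 and is annotated as a target of nonsense-mediated decay, while SERPINA3-205 and SERPINA3-207 are short processed transcripts without a reading frame. Few sequences set these apart: of the 31-base runs in each transcript, the word length that kallisto matches by default, 7 of 1559 in SERPINA3-201 and 29 of 1551 in SERPINA3-202 were in no other SERPINA3 transcript of the table. A readthrough transcript of the neighbouring gene AL049839.2 (ENST00000553947), which the table lists without a symbol, holds all 1559 runs of SERPINA3-201.

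LCN2 lay on the plus strand of chromosome 9 between 128149071 and 128153455. LCN2-201 (ENST00000277480, 822 bases, 7 exons) encodes 198 codons from 128149526 to 128153116. LCN2-202 (200 codons) has an extra small exon 3 and LCN2-203 (198 codons) an extra upstream exon that begins at 128149071. LCN2-204 and LCN2-205 use another exon 2 and have no annotated reading frame, and LCN2-206 and LCN2-207 start at 128151500 and 128151669, just before and inside the third exon of LCN2-201. Of the 792 runs of 31 bases in LCN2-201, 2 were in no other LCN2 transcript, against 136 of 455 in LCN2-206 and 201 of 595 in LCN2-207.

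Because both genes were high in the same cultures, the sequence just upstream of their exons is shown, with matches to the letters of an NF-κB site (GGGAA, then 3 bases of any kind, then CC, on either strand) in capitals (RefSeq, GRCh38.p14, plus strand shown).
SERPINA3 chr14:94612201-94612376: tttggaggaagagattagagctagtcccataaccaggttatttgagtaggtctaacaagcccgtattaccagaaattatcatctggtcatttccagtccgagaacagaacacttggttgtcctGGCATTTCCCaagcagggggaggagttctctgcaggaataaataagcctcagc
LCN2 chr9:128149265-128149440: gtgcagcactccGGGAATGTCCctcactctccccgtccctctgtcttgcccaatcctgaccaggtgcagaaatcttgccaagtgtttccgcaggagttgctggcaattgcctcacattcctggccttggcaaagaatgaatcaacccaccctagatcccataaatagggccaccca
The SERPINA3 match was on the minus strand 67 bases before the RefSeq start and the LCN2 match on the plus strand 176 bases before it. In windows of 250 bases before the start, this motif was present in 2114 of 35116 promoters (6.02%). TTCNNNGAA, the letters of a STAT site with N for any base, was in neither window (6.57% of promoters), and TTGCNNAA, the letters of a C/EBP site, matched once in LCN2, 143 bases before its start (9.05% of promoters). These matches did not overlap. The motifs were picked after the sequences were seen, and a match is a description of letters.

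SERPINA3 RNA was abundant only in the 4 BPCa libraries with MG63 among the 36 libraries. In CPM of the library total, C4-2 cells with MG63 had 142 and 101.8 (mean 121.9 ± 28.4, SD, n = 2) and C4-2B cells with MG63 had 60.5 and 51.5 (56 ± 6.37, n = 2). C4-2 cells without MG63 averaged 1.07 ± 0.212 CPM in mono-culture (n = 3), 1.05 ± 0.292 with RAW264.7 and RANKL (n = 2) and 0.76 ± 0.574 with RANKL (n = 2). C4-2B cells averaged 0.64 ± 0.278, 0.346 ± 0.121 and 0.439 ± 0.143 CPM in the same 3 cultures. In both lines every library with MG63 lay above every library without it, and the mono-culture, RANKL and RAW264.7 levels overlapped. The mean with MG63 was 113.8 times the mono-culture mean in C4-2 and 87.4 times in C4-2B. DU145 and 22Rv1 libraries held at most 3.62 SERPINA3 counts each, in every culture, and 7 of the 36 libraries held none. In bulk RNA such as this, fewer cells expressing a gene and less RNA per cell cannot be told apart.

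LCN2 RNA was high in the same 4 libraries and, at a lower level, in DU145. C4-2B cells with MG63 had 37.9 and 33.6 CPM (35.7 ± 3.07, n = 2) and C4-2 cells with MG63 had 27.8 and 26.2 (27 ± 1.12, n = 2). DU145 cells with MG63 had 9.75 and 5.84 CPM (7.79 ± 2.77, n = 2), of which the lower value came from replicate 2, the library that stood apart. DU145 cells then followed with RAW264.7 and RANKL (2.37 ± 0.0194, n = 2), with RANKL (1.72 ± 0.00493, n = 2) and in mono-culture (0.609 ± 0.164, n = 3). These 6 groups did not overlap with their neighbours in the order. All other groups averaged 0.231 CPM or less and overlapped, and 22Rv1 mono-cultures and RANKL cultures were at 0. The mean with MG63 was 133 times the mono-culture mean in C4-2 and 12.8 times in DU145, and 319.4 times in C4-2B, where the mono-culture mean rests on 12.3 counts in 1 of 3 libraries and 0 in the other two.

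**Figure D1:**
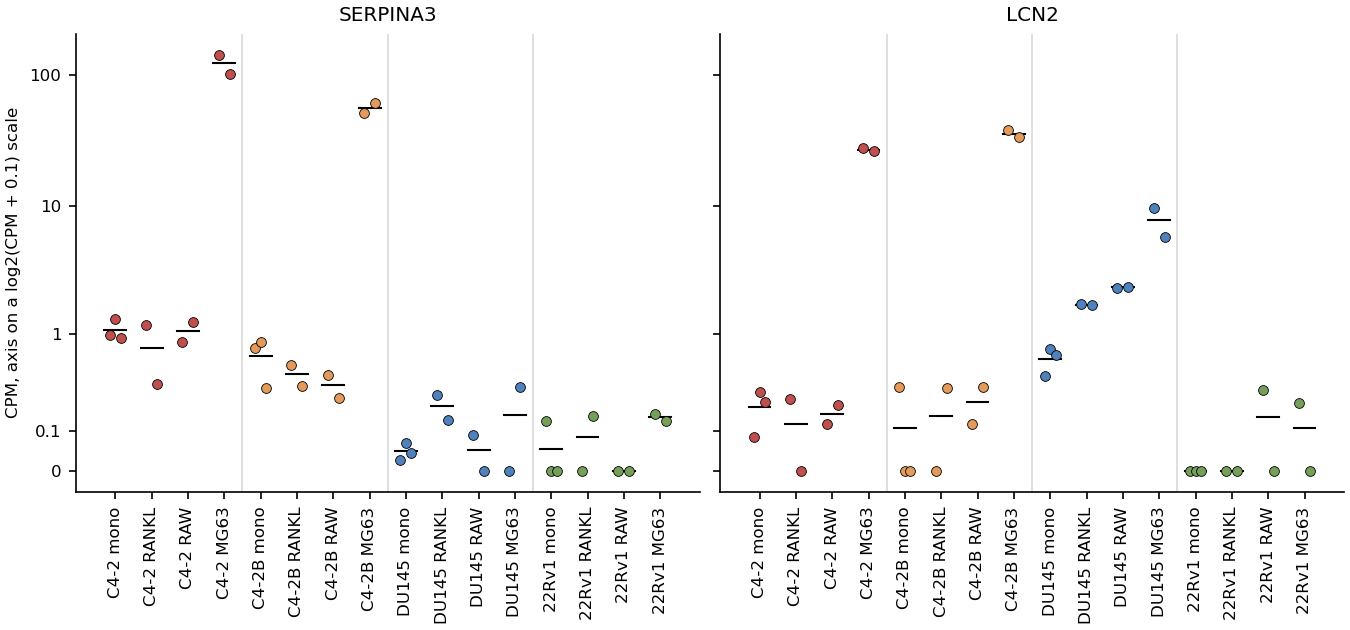
SERPINA3 (left) and LCN2 (right) in each of the 36 libraries, in CPM of the library total on a log2(CPM + 0.1) axis, by line and culture, with group means as bars. SERPINA3 stands at 51.5 to 142 CPM in the 4 BPCa libraries with MG63 and at 1.31 CPM or less elsewhere, and LCN2 also rises in steps across the DU145 cultures.

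Per base of transcript the pair changed order between the BPCa lines. Summed as CPM per kilobase of each transcript's annotated length, SERPINA3 came to 77.8 ± 18.7 and LCN2 to 34.4 ± 0.637 in C4-2 cells with MG63 (n = 2), so that SERPINA3 was 1.9 and 2.61 times LCN2 in the 2 libraries. In C4-2B cells with MG63, SERPINA3 came to 35.3 ± 3.67 and LCN2 to 44.6 ± 2.64 per kilobase (n = 2), a ratio of 0.703 and 0.885. The ratios of the lines did not overlap. In DU145 cells with MG63 the ratio was 0 and 0.05. In counts not divided by length, SERPINA3 was 3.88 and 5.11 times LCN2 in C4-2 and 1.36 and 1.8 times in C4-2B, so the order did not change.

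With MG63, nearly all SERPINA3 counts fell on the pair of full-length forms, and the larger part on SERPINA3-201. In C4-2 cells SERPINA3-201 held 1301 of 2012 and 1109 of 1567 counts, 64.6% and 70.7%, and in C4-2B cells 432.3 of 720.6 and 567.2 of 829.6 counts, 60% and 68.4%. SERPINA3-202 held 655.7 and 431.7 counts in C4-2 (32.6% and 27.5%) and 274.9 and 246.4 counts in C4-2B (38.1% and 29.7%). Summed over libraries, SERPINA3-201 took 67.3% in C4-2 (95% exact binomial interval 65.7 to 68.8) and 64.5% in C4-2B (62.1 to 66.9), and SERPINA3-202 took 30.4% (28.9 to 31.9) and 33.6% (31.3 to 36). The replicates of 1 line differed from each other by more than the lines did.

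The 3 forms with the whole reading frame (SERPINA3-201, SERPINA3-202 and SERPINA3-203) together held 97.7% and 98.6% of the counts in C4-2 and 98.1% and 98.4% in C4-2B. SERPINA3-204, which starts inside the gene, held between 9.83 and 14.8 counts in each of the 4 libraries, 0.8% in C4-2 and 1.49% in C4-2B. SERPINA3-208, the decay target, held 15.5 counts in C4-2, all in replicate 1, and none in C4-2B, where 0 counts of 1550 allow a share of up to 0.238% (exact interval). SERPINA3-206 held less than 1 count in all 4 libraries together.

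LCN2 counts with MG63 lay mainly on LCN2-201. It held 357 of 393.9 and 348.2 of 403.7 counts in C4-2 (90.6% and 86.3%), 508.4 of 530.6 and 415.9 of 460.4 in C4-2B (95.8% and 90.3%), and 112.9 of 125.5 and 35.2 of 60.8 in DU145 (90% and 57.8%). The low DU145 share again belongs to replicate 2, so the summed DU145 share of 79.5% (73.1 to 85.1) was 90% without it. LCN2-207, a processed transcript that lacks the beginning of the gene, held 7.87% in C4-2 (6.86% and 8.86% in the libraries), 4.78% in C4-2B (2.97% and 6.86%) and 10.7% in DU145 (6.13% and 20.0%). In DU145 replicate 2, LCN2-206 ranked above it with 22.1%. LCN2-206, with a retained intron, held 20.7 counts in C4-2 and 13.4 in DU145, all of the latter in replicate 2, and 0 of 991 counts in C4-2B. LCN2-202 and LCN2-203 held none with MG63 in these 3 lines.

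**Figure D2:**
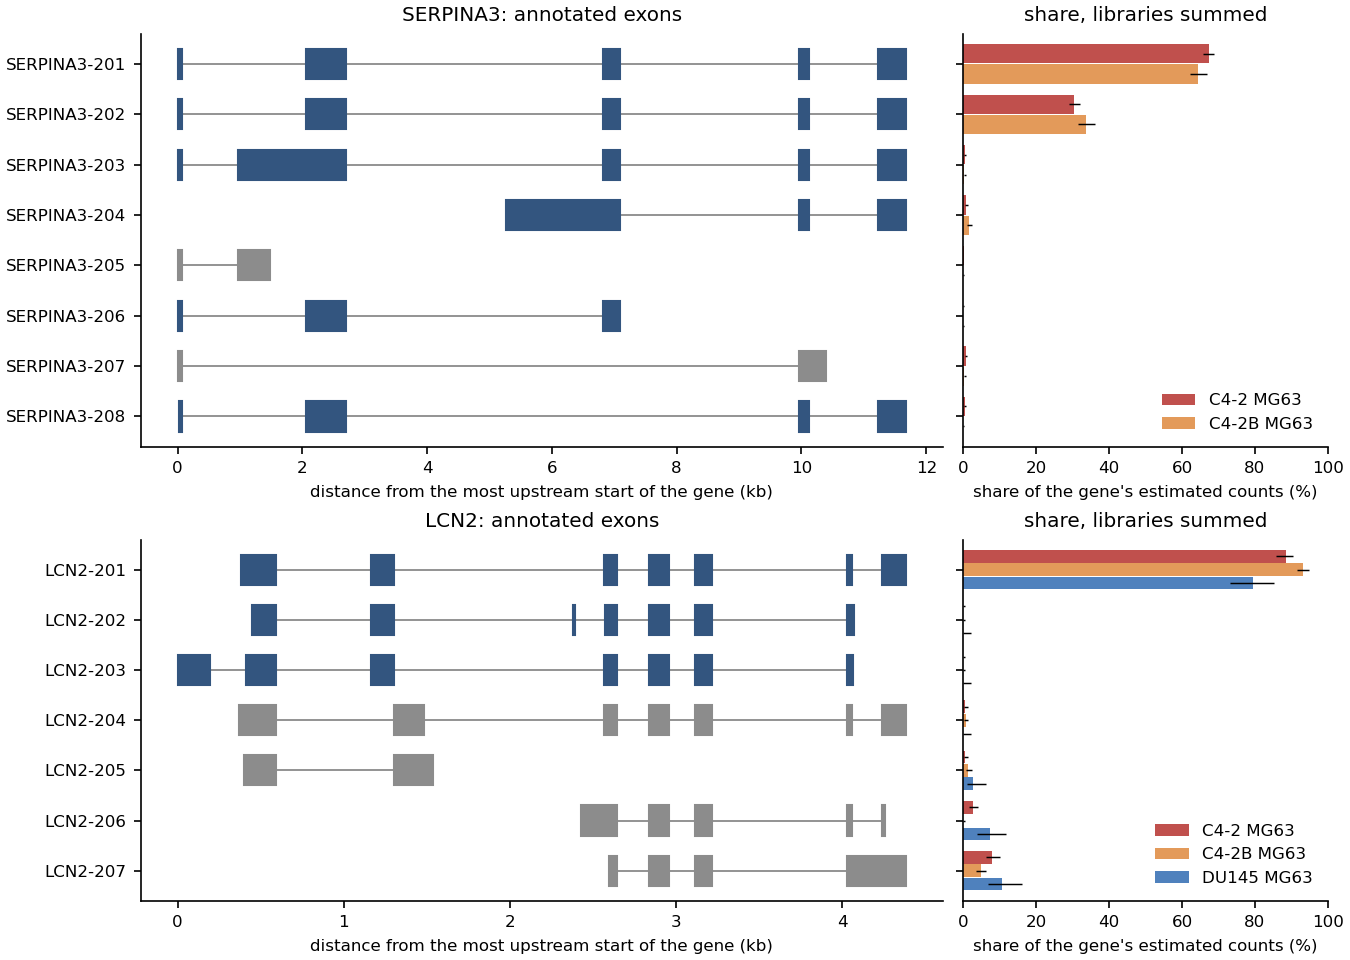
Left, exons (boxes) of the 8 SERPINA3 and 7 LCN2 transcripts against distance from the most upstream start in kb, in blue where a reading frame is annotated. Right, each transcript's share of the gene's estimated counts with MG63, libraries summed, with 95% exact binomial intervals. SERPINA3-201 takes 67.3% and 64.5% and LCN2-201 79.5% to 93.3%.

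In all other libraries, the LPCa co-cultures with MG63 among them, SERPINA3 shares rested on few counts and swung from library to library. In 4 libraries with over 100 SERPINA3 counts, SERPINA3-201 led each time with 60% to 70.7%. In 17 libraries with over 3 and up to 100 counts, the leading form held 48.2% to 100% and was SERPINA3-201 in 4 libraries, SERPINA3-202 in 6, SERPINA3-206 in 5 and SERPINA3-208 in 2, of which one is DU145 replicate 2 with MG63 (3.45 counts). C4-2 mono-cultures show this: SERPINA3-201 held 12.8 of 32.7 counts in replicate 1 and below 0.1 in the other two, while SERPINA3-202 held 0, 21.8 and 29.1. In C4-2B mono-cultures SERPINA3-206 held 16.4 of 27.5 counts, 11.8 of 25.5 and 0 of 10.7. Depth of the gene moved with culture here, and its part in the difference of SERPINA3-206 between cultures was not tested.

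LCN2 showed the same swing at low counts. LCN2-201 led in all 5 libraries with over 100 counts and in 11 of 16 libraries with over 3 and up to 100. These 16 include 2 with MG63: DU145 replicate 2 (60.8 counts), led by LCN2-201, and 22Rv1 replicate 1, with all of its 3.43 counts on LCN2-206. The 3 DU145 mono-cultures, with 14.5, 22.2 and 20.6 counts, were led by LCN2-202 (all 14.5 counts), LCN2-201 (12.9 counts, beside 9.26 on LCN2-203) and LCN2-201 (19.5 counts). With RANKL LCN2-201 held 80% and 100% of DU145 counts, and with RAW264.7 82.6% and 83%. LCN2-203, with its upstream exon, was above 0 in that 1 mono-culture of the 36 libraries.

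The study's qPCR primers fall on exons that most of these counts share. The primers are shown because they set which transcripts the study's own assay could count.
SERPINA3 forward: aaggaccttgactcgcagac
SERPINA3 reverse: catgggcaccattacccact
LCN2 forward: ccacctcagacctgatccca
LCN2 reverse: cccctggaattggttgtcctg
The SERPINA3 pair lies in exon 2 (chr14:94615030-94615049) and exon 3 (chr14:94619261-94619280) and encloses 141 bases in 4 of the 8 transcripts, SERPINA3-201, SERPINA3-202, SERPINA3-203 and SERPINA3-206. The LCN2 pair, with its reverse primer across the junction of exons 1 and 2 and its forward primer at chr9:128149593-128149612, encloses 80 bases in 3 of the 7 transcripts, LCN2-201, LCN2-202 and LCN2-203. Transcripts with both sites held 98.1% of SERPINA3 counts in C4-2 with MG63 (97.7 and 98.6 in the libraries) and 98.3% in C4-2B (98.1 and 98.4). For LCN2 they held 88.4% in C4-2 (86.3 and 90.6), 93.3% in C4-2B (90.3 and 95.8) and 79.5% in DU145 (57.8 and 90).

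Between the BPCa lines, both grown with MG63, C4-2B cells had less SERPINA3 than C4-2 cells, a call that rests on C4-2 replicate 1. The choice of the genes used the rise in these same libraries, but not the difference between the lines. SERPINA3 was 2.18 times lower in C4-2B (log2 change -1.13 ± 0.23, SE; adjusted p = 0.00145, edgeR), with 60.5 and 51.5 CPM against 142 and 101.8 CPM. Both LCN2 values of C4-2B lay above those of C4-2 (37.9 and 33.6 against 27.8 and 26.2 CPM), but the difference did not pass the test: log2 change 0.40 ± 0.39, adjusted p = 0.642 by edgeR, with a 95% interval from -0.37 to 1.17. Of 13454 genes tested, 308 (2.29%) were called in this comparison, that is with adjusted p under 0.05 and a fold above 2 in either direction. Both genes entered the test only through libraries with MG63, in which they are high. Without C4-2 replicate 1, the higher C4-2 library, the SERPINA3 change was -0.88 with adjusted p = 0.117 (edgeR) and was no longer called.

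No single transcript was called between the lines. SERPINA3-201 averaged 499.8 counts in C4-2B and 1205 in C4-2 (log2 change -1.22 ± 0.91, adjusted p = 0.857, edgeR), and SERPINA3-202 260.6 and 543.7 counts (-1.01 ± 1.41, adjusted p = 1, edgeR). LCN2-201 averaged 462.2 and 352.6 counts (0.45 ± 1.23, adjusted p = 1, edgeR). At this level 194 of 101767 transcripts (0.191%) were called. The intervals were wide, from -3.00 to 0.56 for SERPINA3-201. Its libraries lay at 30.9 and 41.4 CPM in C4-2B and 91.8 and 72 CPM in C4-2. The fit used the trended dispersion over all transcripts, and its part in these widths was not tested. SERPINA3 passed the filter of 10 counts in 2 libraries with 5 of its 8 transcripts and LCN2 with 3 of 7.

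Usage, the change of a transcript relative to the others of its gene, was near 0 for the leading forms. It was -0.07 ± 0.74 on the log2 scale for SERPINA3-201, 0.13 ± 1.06 for SERPINA3-202 and 0.09 ± 0.93 for LCN2-201, each with adjusted p = 1 (edgeR diffSpliceDGE). Their 95% intervals reached from -1.53 to 1.39, from -1.95 to 2.22 and from -1.73 to 1.90, so a shift of up to about that size was not detectable. Of 94867 transcripts tested, 123 (0.13%) changed usage at adjusted p under 0.05. LCN2-206, with 10.3 counts on average in C4-2 and 0 in C4-2B, and SERPINA3-208, with 7.77 and 0, are given as values only.

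**Figure D3:**
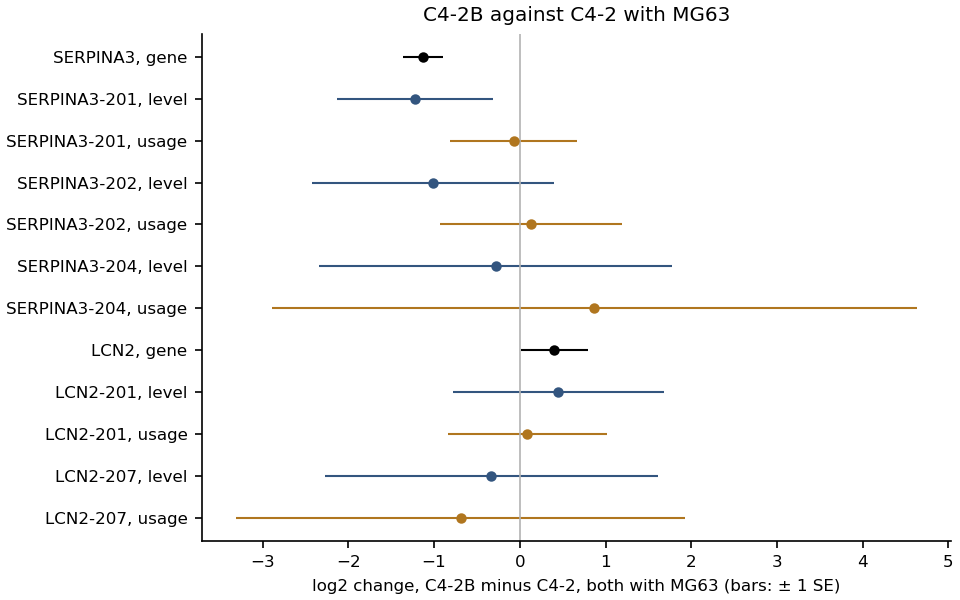
Log2 change of C4-2B minus C4-2, both with MG63 (2 libraries each), with 1 SE on each side, for each gene (black), for transcript levels (blue) and for transcript usage (brown). The SERPINA3 gene change of -1.13 lies below 0 by several SE, while every transcript interval is wide.

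No difference of SERPINA3 was detected between BPCa cells with and without osteoclast precursors, and LCN2 was too low there to compare. Under RANKL, SERPINA3 was 0.697 ± 0.445 CPM with RAW264.7 cells and 0.599 ± 0.389 CPM without (SD, n = 4 each, two-sided exact permutation test, p = 0.771). LCN2 held 0 to 3.92 counts in each of these 8 libraries, at or near the floor of 3 counts, so nothing is read from its means of 0.201 and 0.144 CPM. The smallest p this design allows is 0.0286. Each group of 4 pools 2 libraries of C4-2 and 2 of C4-2B, and the permutations did not keep the lines apart, although SERPINA3 differed between them (0.843 and 1.26 CPM in C4-2 and 0.432 and 0.26 CPM in C4-2B with RAW264.7). The tests within each line follow. SERPINA3 values ran from 0.26 to 1.26 CPM with RAW264.7 and from 0.338 to 1.17 without, so the groups overlapped. By edgeR, the log2 change of SERPINA3 was 0.34 ± 0.61 in C4-2 (95% interval -0.85 to 1.53) and -0.23 ± 0.87 in C4-2B (-1.93 to 1.47), and that of LCN2 in DU145 0.41 ± 0.57 (-0.71 to 1.53), each with adjusted p = 1. These comparisons called 1 gene of 13454 (0.00743%) in C4-2, in DU145 and in 22Rv1 and 2 genes (0.0149%) in C4-2B, while unadjusted p was under 0.05 for 588 to 637 genes and DESeq2 called 4 genes in C4-2, 5 in C4-2B and 3 in DU145. For the other member values the mean counts of both groups were at or under the floor of 3, with single libraries up to 3.92, and no fold is given.

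With RANKL alone, LCN2 in DU145 was higher than in mono-culture on few counts, by a call that most omissions of 1 library ended, and neither gene was called in BPCa cells. DU145 had 1.72 CPM of LCN2 in both libraries with RANKL (22.7 and 21.6 counts) against 0.426 to 0.743 CPM in mono-culture (14.5, 22.2 and 20.6 counts), a fold of 3.05 (log2 change 1.61 ± 0.56, adjusted p = 0.0331, edgeR). The groups did not overlap in CPM. The counts themselves were alike, and the DU145 mono-cultures were sequenced more deeply, so culture and depth cannot be told apart. LCN2 entered this test only through its MG63 libraries, since none of the 5 libraries compared here reached the filter of 100 counts, and the mono-cultures were also part of the contrast on which the genes were chosen. The marker sums moved with this comparison too: epithelial markers summed to 1780 and 1786 CPM with RANKL against 1053 to 1082 CPM in DU145 mono-culture, and prostate markers to 87.3 and 87.7 against 59.2 to 63.2 CPM, neither overlapping. Their part in the LCN2 difference was not tested. In this comparison 5.21% of genes were called, and the LCN2 call was lost when either RANKL library was left out (adjusted p = 0.144 and 0.129, edgeR) or mono-culture replicate 1 or 3 (0.0889 and 0.0553). It was also lost with the replicate number as a block, at a log2 change of 1.55 and adjusted p = 0.0682. In C4-2, SERPINA3 changed by -0.28 ± 0.51 (adjusted p = 0.761, edgeR) and LCN2 by -0.55 ± 1.32 (0.827), where 2.27% of genes were called. In C4-2B the log2 changes were -0.48 ± 0.64 for SERPINA3 (0.69) and 0.48 ± 1.31 for LCN2 (0.862), where 2.13% were called. Leaving out 1 library moved LCN2 across 0 in both lines, from -4.90 (without RANKL replicate 1) to 0.28 (without RANKL replicate 2) in C4-2, and from -4.27 (without RANKL replicate 2) to 4.69 (without mono-culture replicate 1) in C4-2B. SERPINA3 in C4-2 became 0.26 without RANKL replicate 2, so no direction is read from these values. These BPCa tests too held both genes only through libraries with MG63.

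Around the members, some genes of the cytokine pathways that are known to switch on acute-phase genes were called higher with MG63. The full list of 60 genes also holds partners and targets of the products, other serpins and other lipocalins. Of the 60, 31 passed the filter on low counts, 8 of them outside the cytokines, receptors, factors and feedback inhibitors. Over all 31, 4 were called higher in C4-2 (12.9% of those tested, against 1.66% of all genes), 2 in C4-2B (6.45% against 1.38%), 6 in DU145 (19.4% against 4.04%) and 2 in 22Rv1 (6.45% against 2.16%). None was called lower in any line. The background of 4.04% in DU145 stands for 543 genes, which became 202 without replicate 2 with MG63 and 1658 without replicate 1, while 5 listed genes were called in either case. That of C4-2B stands for 186 genes, which became 108 without replicate 1 with MG63. Other listed genes passed the adjusted p but not the fold of 2, in C4-2 among them NFKB1 (log2 change 0.66 ± 0.06, adjusted p = 2.68e-08, edgeR), which encodes an NF-κB subunit, and NFKB2 (0.56 ± 0.09, adjusted p = 0.00013), which encodes another. The median log2 change over all 31 genes, those 8 included, was 0.32, 0.17, 0.11 and 0.17 in C4-2, C4-2B, DU145 and 22Rv1, and -0.01, -0.02, -0.02 and 0.00 over all genes tested.

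Among ligands and receptors, the cytokine IL6 rose in DU145 from 12.7 ± 0.732 to 33.7 ± 0.353 CPM (log2 change 1.52 ± 0.35, adjusted p = 0.00284, edgeR) and was at 0 to 0.0628 CPM on average in the BPCa lines with and without MG63. DESeq2 gave the DU145 change the same size with adjusted p = 0.755. LIF, a cytokine of the same family, was 1.17 and 1.14 CPM in C4-2 without and with MG63. None of the 9 receptor genes tested was called. OSMR, the oncostatin M receptor, had log2 changes of 0.70 ± 0.19 in C4-2 and 0.52 in C4-2B, and IL6ST, the shared signal subunit gp130, 0.41 and 0.40.

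Among the 9 transcription factors, CEBPD, the C/EBP family member of the acute-phase response, rose in all 4 lines. Its log2 change was 1.24 ± 0.11 in C4-2, 1.25 ± 0.10 in DU145 and 1.09 ± 0.11 in 22Rv1. In C4-2B CEBPD rose by a fold of 2.15 to 23.8 CPM. Adjusted p ran from 1.11e-08 to 6.22e-07 over the 4 lines (edgeR). 22Rv1 cells with MG63 had 0.156 CPM of SERPINA3 and 0.113 CPM of LCN2, and a link between CEBPD and the members was not tested. BCL3, an IκB-like cofactor of NF-κB, rose in C4-2 (1.28 ± 0.13) and 22Rv1 (1.04 ± 0.13) and changed by 0.70 in C4-2B and 0.32 in DU145. With library totals alone as the scale, the 22Rv1 changes fell to 0.94 for BCL3 and 0.99 for CEBPD, under the fold needed for a call, as was BCL3 without mono-culture replicate 1 (0.94) or MG63 replicate 1 (0.92), and CEBPD without mono-culture replicate 1 was at 1.00 and not called. The summed mesenchymal markers were also higher in these 22Rv1 co-cultures (53 and 55.5 against 36.7 to 39.9 CPM), and their part in the 22Rv1 changes was not tested. CEBPB and RELB were called in DU145 (1.51 ± 0.15 and 2.05 ± 0.55), but not without the replicate 2 library (0.92 and 1.76). NFKBIZ, the IκB-zeta that LCN2 induction depends on, had log2 changes of 0.62, 0.68, 0.96 and 0.57 in C4-2, C4-2B, DU145 and 22Rv1 and did not reach a fold of 2. STAT3 was higher by 0.47 in C4-2 (adjusted p = 3.8e-05, edgeR), 0.39 in C4-2B (0.000693) and 0.51 in 22Rv1 (3.37e-05), short of that fold. In DU145 STAT3 changed by -0.02 (adjusted p = 0.895, edgeR).

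Of the 3 feedback inhibitors of these pathways, TNFAIP3 (A20), an NF-κB target that shuts the pathway down, rose in C4-2 (log2 change 1.72 ± 0.33), C4-2B (2.03 ± 0.39) and DU145 (1.13 ± 0.25) and changed by 0.42 in 22Rv1, where adjusted p was 0.522 by edgeR. In DU145 the change was 0.94 without replicate 1 with MG63 and 0.99 without mono-culture replicate 3, both under the fold for a call. The difference between the lines was not tested. NFKBIA (IκB-alpha) rose in DU145 from 340.1 to 718.3 CPM (1.19 ± 0.08) and was higher in C4-2 by 0.91 (adjusted p = 4.35e-08, edgeR), short of the fold for a call. The NFKBIA change was 0.20 in C4-2B (adjusted p = 0.152, edgeR) and -0.16 in 22Rv1 (0.211). SOCS3, which limits STAT3, was called higher in C4-2, from 2.21 to 5.18 counts on average, and the call was lost without C4-2 replicate 1 with MG63 or mono-culture replicate 2 or 3.

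Proteins that act on or with the products were mostly not detected or not called. SLC22A17, a receptor for lipocalin 2, was at 9.92 and 8.4 CPM in C4-2 without and with MG63 and at 0.641 and 0.509 CPM in DU145, and the other 3 genes of that list did not pass the filter. KLK3 (prostate-specific antigen), a chymotrypsin-like protease that alpha-1-antichymotrypsin binds in serum, was at 4694 and 3608 CPM in C4-2 without and with MG63 and 5419 and 4001 CPM in C4-2B, with log2 changes of -0.27 and -0.39. In 22Rv1 KLK3 went from 56.8 to 104.6 CPM (log2 change 0.99 ± 0.09, adjusted p = 7.32e-09, edgeR), just under the fold for a call. Of 8 other serpins of the cluster on chromosome 14, only SERPINA1 passed the filter, at 45.6 and 46.3 CPM in DU145. Of 14 other lipocalin genes, 4 passed it, and LCN12 went from 5.73 to 2.87 CPM in C4-2 and from 10.3 to 5.05 CPM in C4-2B (log2 changes -0.90 and -0.97, not called).

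Genes beside the members on the chromosome did not reach the fold for a call, though some passed the adjusted p, such as PTGES2 in DU145 (log2 change 0.80 ± 0.08, adjusted p = 9.44e-08, edgeR). Within 200 kb of the start of LCN2 the annotation has 12 other protein-coding genes, all of which passed the filter and none of which was called with MG63 in any line. FAM102A, whose start lies at -168.6 kb from that of LCN2, had log2 changes of 0.69 and 0.64 in C4-2 and C4-2B, and PTGES2, the nearest upstream at -20.6 kb, 0.18 and 0.20. Within 200 kb of SERPINA3, GSC alone of 7 genes passed the filter, with 0.28 and 0.49.

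Genes whose levels followed the members most closely over the 16 group means of log2(CPM + 1) are given with Pearson's r as a description, since the points share libraries and the MG63 groups carry most of the range. For SERPINA3 they were LRG1 (r = 0.916), SHROOM1 (0.889), LCN2 (0.831), UST (0.787) and COL5A1 (0.757), among 13454 genes. LRG1, a secreted leucine-rich acute-phase glycoprotein, went from 2.97 to 12.6 CPM in C4-2 and from 2.47 to 10.4 CPM in C4-2B, and stayed at 0.458 CPM or less on average in DU145 and 22Rv1 in those 2 cultures. SHROOM1 went from 15.8 to 40.8 and from 24.1 to 67.8 CPM.

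For LCN2 the closest genes were PI3 (r = 0.919), CFB (0.870), SAA2 (0.870), CCL20 (0.853) and SAA1 (0.845). PI3, the elastase inhibitor elafin, was at 6.74, 4.73 and 8.51 CPM with MG63 in C4-2, C4-2B and DU145 and at 0, 0.0297 and 0.34 CPM in mono-culture. SAA1, serum amyloid A, an acute-phase protein, went from 0 to 19 CPM in C4-2, from 0 to 8.99 in C4-2B and from 4.31 to 37.4 in DU145. SAA1 and SAA2 are near-identical copies between which reads can be split. CFB, complement factor B, went from 1.09 to 17.3 CPM in C4-2 and from 1.08 to 11 in C4-2B, and was at 8.86 and 9.15 CPM in DU145. CCL20, a chemokine, went from 0 to 16.4 CPM in C4-2 and from 2.92 to 11.3 in DU145.

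**Figure D4:**
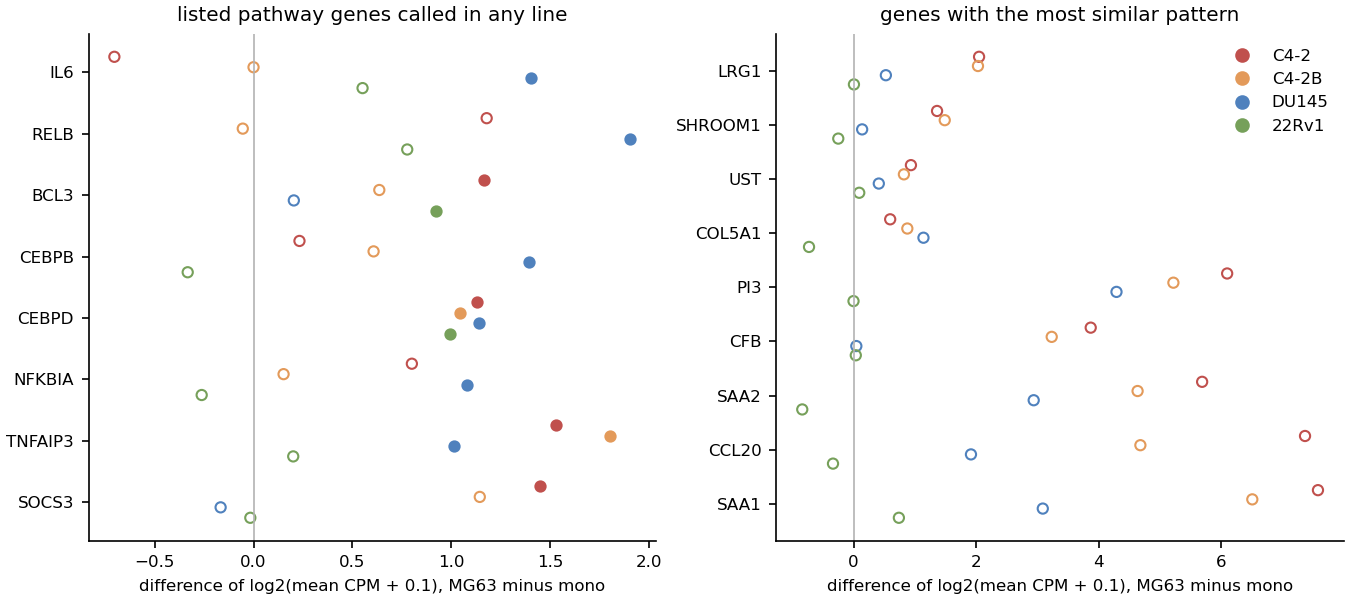
Difference of log2(mean CPM + 0.1) between MG63 co-culture and mono-culture in each line for the listed pathway genes called in at least 1 line (left) and the genes most like SERPINA3 or LCN2 (right). Filled points on the left were called by edgeR; the genes on the right were picked for their pattern over the same libraries, so no call is marked there. CEBPD is filled in all 4 lines. The COL5A1 point of DU145 rests on 1 library.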

How the data were processed

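Poly-A RNA was sequenced from the cancer cells of each culture. The authors mapped reads with kallisto and deposited 1 table of estimated counts per transcript; these expected counts need not be whole and are not normalized. The submitters' processing notes name FastQC and kallisto and the build hg19, and the index used is not given in the sources used here, so transcript structures, sequences and coordinates come from GENCODE 29 and RefSeq on GRCh38, matched by transcript identifier. Repeated lines of a transcript were identical and were taken once, and 0.526% to 0.765% of the counts per library fell on transcripts without a symbol, which stay in the library totals.

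SERPINA3, LCN2, their transcripts and the gene lists were chosen with earlier results of these data known. Counts were summed by symbol and rounded for tests. Tests used edgeR 4.0.16 (TMM, quasi-likelihood, 16 group means over 36 libraries) on genes that reached 100 counts in 1 or more libraries and transcripts that reached 10 in 2 or more, and diffSpliceDGE for usage, with the trended dispersion for transcripts. A call needed a Benjamini-Hochberg adjusted p under 0.05 and a fold above 2, for usage the adjusted p alone. The scripts were tested on simulated counts. Alternatives included DESeq2 1.42.0, other scales, filters and sets of libraries, the replicate number as a block, and each library left out. Replicate numbers do not pair samples in the labels, and deviations of same-numbered libraries correlated between -0.05 and 0.06.

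Genes named are the members, the listed pathway genes, protein-coding genes within 200 kb of a member's start, and per member the 5 genes of highest r over group means. Primer sequences are from the study's supplement. Permutation tests used scipy.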

Additional observations from a re-analysis of the deposited data

Results flagged for a closer look

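A readthrough transcript that runs across SERPINA3 (ENST00000553947, gene AL049839.2, listed without a symbol and so in no comparison above) had counts in the 4 BPCa libraries with MG63 and in none of the other 32 libraries. It held 1.14 and 2.25 estimated counts in C4-2 replicates 1 and 2 with MG63 and 5.73 and 2.28 in C4-2B replicates 1 and 2. It was singled out as signal outside the symbols analysed that was at 0 in the mono-cultures. It contains every 31-base run of SERPINA3-201, and 3 of the 4 values lie under the floor of 3 counts.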

How the results depend on the processing

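Over 84 results, 754 of 832 values under other settings kept their direction and side of the threshold, or moved little. With the replicate number as a block, LCN2 in DU145 with RANKL was 1.55 (adjusted p = 0.0682, edgeR) and lost its call; SERPINA3 in C4-2B against C4-2 was -1.12. The numbers do not pair libraries (r from -0.05 to 0.06), and the block moved calls with RAW264.7 to 0 in C4-2, 1 in C4-2B and 0 in DU145. Leaving out 1 library each, SERPINA3 in C4-2B against C4-2 ran from -1.34 to -0.88 and LCN2 in DU145 with RANKL from 1.42 to 1.76. Changes that were never called turned sign: SERPINA3 with RAW264.7 ran from -0.20 to 1.49 in C4-2 and from -0.72 to 0.14 in C4-2B (0.05 without RAW replicate 2). With RANKL, SERPINA3 in C4-2 ran from -1.43 to 0.26, LCN2 in C4-2 from -4.90 to 0.28, and LCN2 in C4-2B from -4.27 to 4.69 (-0.01 and -0.08 without mono-culture replicates 2 and 3). Without C4-2B replicate 1 with MG63, SERPINA3-201 usage was 0.01 (range -0.17 to 0.01), SERPINA3-202 usage -0.05 (to 0.32) and the LCN2-207 change 0.08 (range -0.90 to 0.08). COL5A1 in DU145 was 0.00 without replicate 2 with MG63 and 5.54 without replicate 1. Leaving out libraries moved the LCN2-201 share with MG63 from 86.3% to 90.6% in C4-2, 90.3% to 95.8% in C4-2B and 57.8% to 90% in DU145, the SERPINA3-201 share from 64.6% to 70.7% and 60% to 68.4%, and the SERPINA3-202 share from 27.5% to 32.6% and 29.7% to 38.1% in C4-2 and C4-2B. Per annotated length, LCN2-201 took 84.4% in C4-2, and among coding transcripts 100% in C4-2 and C4-2B, since the other LCN2 forms with counts there are non-coding. Listed genes called in 22Rv1 were 0 with library totals alone, 1 without a filter and 0 to 3 with libraries left out; C4-2B had 4 without a filter. They ran from 3 to 5 in C4-2, 2 to 3 in C4-2B and 5 to 7 in DU145. Calls over all genes in DU145 with MG63 were 543, 154 within the line, 202 without replicate 2 and 1658 without replicate 1; in C4-2B with MG63 they fell from 186 to 108 without replicate 1. Usage calls ran from 60 to 113 against 123. With RAW264.7, DESeq2 called 4, 5 and 3 genes in C4-2, C4-2B and DU145. The causes were not tested.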
